A study of Mus musculus with 12 samples.

Results

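The expression of 44 genes of the nucleolus and of ribosome biogenesis was followed in mouse C2C12 myoblasts after silencing of *Zbed6*. The genes were picked by symbol, as all probes whose platform gene symbol is 1 of the 44. That rule uses no measured value, but the list was drawn up with earlier results of these data known. Of the 44 genes, 37 had at least 1 probe on the array, and 33 had a probe that passed the detection filter, against 8858 of 16593 symbols for the whole array. A probe was detected on an array when its detection p-value, which ranks it among negative control beads, was under 0.05, and it was kept when this held on at least 3 of the 12 arrays. *Polr1b*, *Rrn3*, *Utp18*, *Utp20*, *Wdr43*, *Nol6* and *Noc2l* had no probe. *Dkc1*, *Mphosph10*, *Bysl* and *Wdr12* each had 1 probe, detected on 0 of 12 arrays, which is a limit of these probes and gives no level for the genes. Of the 33 genes that remained, 32 were detected on all 12 arrays. *Nolc1* was detected on 2 of 3 arrays in each 48 h group and on all 3 in each 96 h group.

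Ribosomes are made in the nucleolus, where RNA polymerase I transcribes the ribosomal DNA into a long precursor. Small nucleolar ribonucleoproteins (snoRNPs) modify that precursor, those of the box C/D class by ribose methylation and those of the box H/ACA class by conversion of uridine to pseudouridine. Large sets of assembly factors then cut and fold it into the small and the large subunit. In growing cells this is among the costliest activities, many of its genes are known targets of MYC, and ribosomal RNA synthesis is known to decline when myoblasts differentiate.

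C2C12 is an established clonal line of mouse myoblasts that forms myotubes on differentiation, used here between passages 10 and 18. ZBED6 is a DNA-binding protein with zinc fingers of the BED type, best known for holding down transcription of *Igf2*. Delivery of the siRNAs was by lipofectamine 2000 at plating, in growth medium that held 10% serum and was free of antibiotics, for control and silenced cells alike. Control cells received a pool of scrambled siRNAs and silenced cells a pool of siRNAs against *Zbed6*. Each was collected after 48 h or 96 h, which gave 4 groups of 3 arrays. The labels number the arrays of a group as replicates, and the study calls them biological triplicates. It places the arrays and its checks of the silencing in the same siRNA experiment. The comparison within a day asks what silencing of *Zbed6* does to these genes. That between days asks how they change over culture with and without silencing. No probe carried the name *Zbed6*, so the silencing itself was not checked here.

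Per array, 12078 to 12558 of 25697 probes (47% to 48.9%) were detected and the median raw signal lay between 76.5 and 90.8. Arrays of the same group correlated at 0.9939 to 0.9965, and those of different groups at 0.9770 to 0.9936. Of 6 myoblast markers with a probe, 5 (*Myod1*, *Myog*, *Des*, *Msc*, *Chrna1*) were detected on all 12 arrays. Of the markers of other cells, none of 4 for endothelium, 3 for adipocytes or 4 for neurons and glia was ever detected, while *Krt8* and *Cdh1*, 2 of 4 for epithelium, and *Cd3e*, 1 of 3 for leukocytes, passed the filter. Of these, *Cd3e* fell by 0.56 with time in silenced cells (adjusted p = 0.0127), and the other two passed in no comparison. The part of such cells in the results was not tested. Which slide held each array is not stated in the labels or the methods, so slide and group cannot be told apart. With 3 arrays a group, small differences cannot be resolved.

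The clearest pattern was a lower level of many of these genes at 96 h than at 48 h, with or without *Zbed6* silencing. Values are normalized log2 signals of the brightest kept probe of a gene. A difference was called when its limma p-value, adjusted by Benjamini-Hochberg over the 8858 genes, was under 0.05. In control cells, 16 of 33 genes were lower and 1 was higher at 96 h, where 32.9% of all genes were called, 15.2% lower and 17.7% higher. In silenced cells, 16 of 33 were lower and 0 higher, where 28% of all genes were called, 12.4% lower and 15.6% higher. The median difference of the 33 genes was -0.21 in control and -0.24 in silenced cells, against 0.02 for all genes in both. With arrays scaled to a common median in place of quantile normalization, 6 were lower and 1 higher in control cells. In silenced cells that setting gave 12 lower and 0 higher, and the medians of the 33 were -0.15 and -0.17. Of all 8858 genes, 800 were then called lower and 1747 higher in control cells, and 709 and 1680 in silenced cells. These are bulk samples of equal RNA input, so fewer cells of a type and less of an RNA per cell cannot be told apart, and a change in total RNA per cell would not be seen.

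With silencing, the share of the genes that was called was close to that of all genes on both days. At 48 h, 3 of 33 were higher in silenced cells (*Nop10*, *Nip7* and *Ebna1bp2*) and 0 lower, where 10.2% of all genes were called, 4.63% higher and 5.61% lower. The split at 48 h changed with the processing, to 4 higher and 3 lower with the authors' values. It was 4 and 2 with no background correction and 3 and 2 with an offset of 50. Over all genes the split at 48 h was 410 higher and 497 lower. With the authors' values it was 505 and 550, and with no background correction 708 and 762. At 96 h, 1 was higher (*Heatr1*) and 2 were lower (*Tcof1* and *Rrp1b*), where 6.83% of all genes were called, 3.44% higher and 3.39% lower. The median difference of the 33 was 0.048 at 48 h and 0.051 at 96 h, against 0.00 for all genes. The silencing effect differed between the days (interaction) for 5 of 33 genes, where 4.49% of all genes were called (2.38% upwards, 2.11% downwards). It was more positive at 96 h for *Heatr1* and more negative for *Nop10*, *Nip7*, *Ebna1bp2* and *Tcof1*. At an unadjusted p under 0.05, 9 of the 33 passed at 48 h (5 higher, 4 lower) and 7 at 96 h (3 higher, 4 lower). Of all 8858 genes, 2494 passed in that way at 48 h and 2323 at 96 h. The counts on the 2 days are small and changed when 1 array was left out. Leaving out an array also weakens the test for every gene, and no count over all genes is given beside it. Without silenced replicate 1, 2 genes were called at 48 h, and without any 1 of the other 5 arrays of that day, 0 were. At 96 h, 0 were called without control replicate 1, control replicate 3 or silenced replicate 2, and 1 without control replicate 2 or silenced replicate 1.

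**Figure D1:**
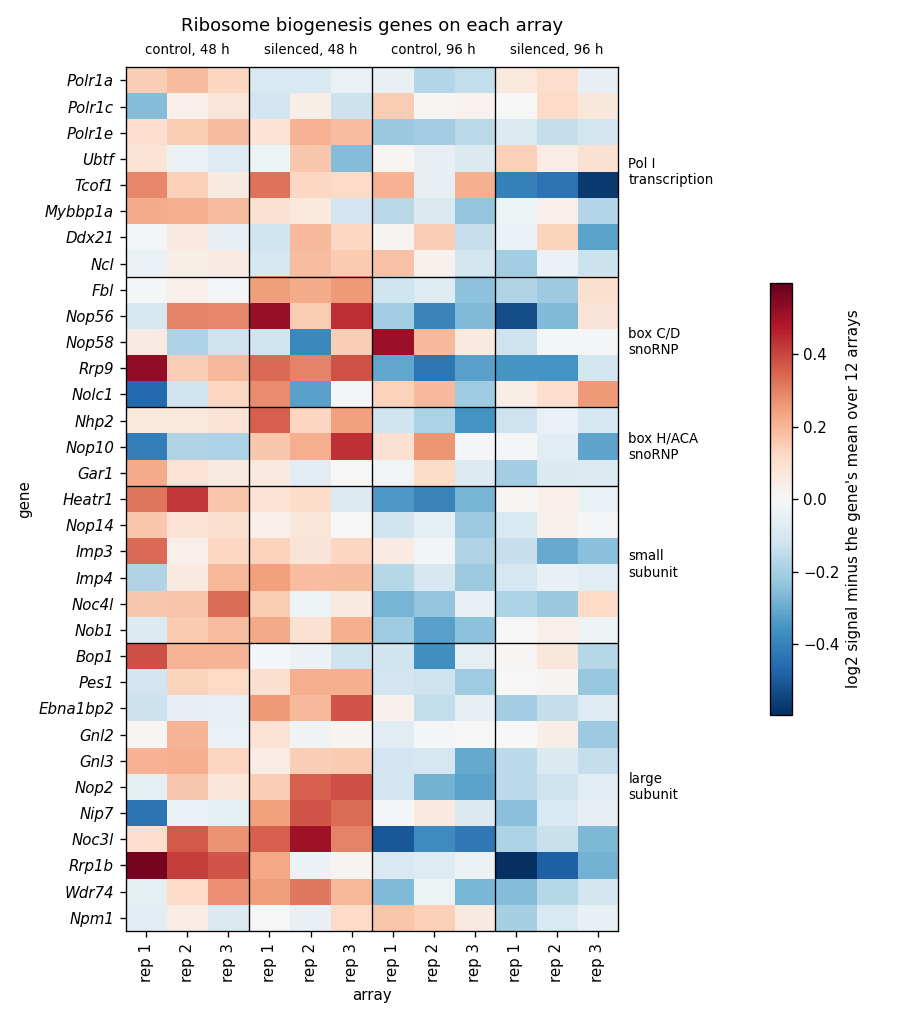
Each row is 1 of the 33 measured genes and each column 1 of the 12 arrays, and the colour gives the normalized log2 signal minus the gene's mean over the 12 arrays. Most rows turn from red on the 48 h arrays (left) to blue on the 96 h arrays (right), and the median over the 33 genes lies between 0.05 and 0.15 on the 48 h arrays and between -0.16 and -0.07 on the 96 h arrays.

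The promoters of 4 of the genes whose silencing effect differed between the days are shown so that the 3 that were higher at 48 h can be set beside *Heatr1*, which went the other way. They are RefSeq sequences of build GRCm38.p6, from 250 bases before to 50 bases after the start of transcription, and all 4 are on the plus strand. *Nop10* lies at chr2:112261676-112261975, *Ebna1bp2* at chr4:118620549-118620848, *Nip7* at chr8:107056627-107056926 and *Heatr1* at chr13:12395125-12395424. Capitals mark matches, on either strand, to GCTCG, the consensus of ZBED6 in most of the study's text, and GCTCGC, a longer form also given there, to CACGTG, the E-box bound by MYC and MAX, and to CCGGAAGT, a motif of ETS factors.
Nop10: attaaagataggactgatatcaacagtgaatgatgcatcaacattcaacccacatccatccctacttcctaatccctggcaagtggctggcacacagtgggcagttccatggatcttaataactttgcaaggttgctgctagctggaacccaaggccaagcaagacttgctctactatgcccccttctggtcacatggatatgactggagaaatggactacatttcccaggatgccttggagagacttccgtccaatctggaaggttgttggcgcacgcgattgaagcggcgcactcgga
Ebna1bp2: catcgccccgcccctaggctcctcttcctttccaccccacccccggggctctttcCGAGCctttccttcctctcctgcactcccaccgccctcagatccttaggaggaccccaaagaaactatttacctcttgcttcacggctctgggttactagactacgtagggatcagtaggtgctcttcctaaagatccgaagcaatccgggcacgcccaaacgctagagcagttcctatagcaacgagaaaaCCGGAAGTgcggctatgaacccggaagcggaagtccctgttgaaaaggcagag
Nip7: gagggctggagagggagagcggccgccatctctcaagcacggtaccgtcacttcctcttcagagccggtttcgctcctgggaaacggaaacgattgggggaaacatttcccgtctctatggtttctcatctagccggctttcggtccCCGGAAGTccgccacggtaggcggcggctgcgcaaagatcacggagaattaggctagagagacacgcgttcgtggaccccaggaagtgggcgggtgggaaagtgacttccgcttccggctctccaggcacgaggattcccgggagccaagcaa
Heatr1: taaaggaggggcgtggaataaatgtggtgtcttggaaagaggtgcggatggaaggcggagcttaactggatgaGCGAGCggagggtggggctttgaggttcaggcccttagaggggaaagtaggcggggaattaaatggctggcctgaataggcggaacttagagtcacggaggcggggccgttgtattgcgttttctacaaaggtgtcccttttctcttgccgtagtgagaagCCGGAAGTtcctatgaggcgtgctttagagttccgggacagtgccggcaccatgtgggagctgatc
The *Nop10* window held none of the 4 motifs. CCGGAAGT began 3 bases before the start in *Ebna1bp2*, 103 before it in *Nip7* and 16 before it in *Heatr1*. GCTCG was found on the minus strand of *Ebna1bp2*, 195 bases before the start, and of *Heatr1*, 176 bases before it, where it is part of a match to GCTCGC.

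A promoter was in the RefSeq table for 38 of the 44 genes (28 of the 33 measured), 47 promoters in all. CCGGAAGT was in 11 of the 47 (23.4%), against 3.89% of all 32851 promoters of the same length. GCTCG was in 23 (48.9%), against 29.8%, GCTCGC in 16 (34%), against 14.1%, and CACGTG in 8 (17%), against 7.15%. The promoters of these genes were also richer in G and C, with a median of 58.3% against 52.7%, and the part of base composition in the motif shares was not tested. The search for GCTCG was added after the data were seen. Every match to GCTCGC is also one to GCTCG, no other motif contains another, and a match says only that the letters are present.

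Of the genes of RNA polymerase I transcription, 8 of 10 were measured. With silencing, 1 of the 8 was called lower at 96 h and none at 48 h. With time, 3 were lower in control cells and 2 in silenced cells.

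*Tcof1* encodes treacle, a nucleolar phosphoprotein that binds RNA polymerase I and its factor UBF. In control cells its probe read 9.95, 9.80 and 9.71 at 48 h and 9.87, 9.61 and 9.87 at 96 h. In silenced cells it read 9.98, 9.78 and 9.77 at 48 h, and 9.26, 9.22 and 9.09 at 96 h. The 3 silenced arrays at 96 h were thus below the other 9, which overlapped freely. At 96 h *Tcof1* was lower with silencing by 0.59 (1.51-fold, SE 0.10, adjusted p = 0.0182), while the difference at 48 h was 0.03 (adjusted p = 0.895). The effects on the 2 days differed by -0.62 (adjusted p = 0.0336), and from 48 h to 96 h the gene fell by 0.66 in silenced cells (adjusted p = 0.000379). Removing control replicate 1, control replicate 3 or silenced replicate 2 ended the call at 96 h, with adjusted p-values up to 0.0707 and differences from -0.68 to -0.55. The interaction held without control replicate 1 or silenced replicate 2 of 48 h or control replicate 2 of 96 h, and was lost without any 1 of the other 9 arrays (adjusted p up to 0.0747). *Tcof1* has no other kept probe.

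*Polr1a*, the largest subunit of RNA polymerase I, read 11.25, 11.30 and 11.24 on the control arrays at 48 h and 11.02, 11.02 and 11.07 on the silenced arrays. At 96 h it read 11.07, 10.94 and 10.96 in control cells and 11.17, 11.21 and 11.06 in silenced cells. The groups were apart at 48 h and overlapped at 96 h. The silencing differences were -0.23 (adjusted p = 0.109) and 0.16 (adjusted p = 0.267), so neither passed, and their difference of 0.39 had an adjusted p of 0.0549. In control cells *Polr1a* fell by 0.27 from 48 h to 96 h (adjusted p = 0.0130), whereas in silenced cells the difference was 0.11 (adjusted p = 0.290).

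*Polr1e*, another subunit of the polymerase, read 8.88, 8.94 and 8.97 in control cells and 8.86, 8.99 and 8.97 in silenced cells at 48 h. The 96 h arrays gave 8.56, 8.58 and 8.62 in control and 8.70, 8.64 and 8.67 in silenced cells. All 96 h arrays were below all 48 h arrays, and it fell by 0.34 (adjusted p = 0.00293) in control and by 0.27 (adjusted p = 0.0132) in silenced cells. The call in silenced cells was lost without silenced replicate 2 of 96 h (adjusted p = 0.0513).

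*Mybbp1a*, a nucleolar protein that binds MYB, read 11.72, 11.72 and 11.69 in control and 11.59, 11.57 and 11.39 in silenced cells at 48 h. Values at 96 h were 11.34, 11.42 and 11.27 in control and 11.48, 11.53 and 11.33 in silenced cells. In control cells it fell by 0.37 with time (adjusted p = 0.00525), and the difference in silenced cells was -0.07 (adjusted p = 0.584). The silencing differences were -0.20 at 48 h and 0.11 at 96 h, with adjusted p-values of 0.197 and 0.492. *Polr1c*, *Ubtf*, which encodes the rDNA binding factor UBF, *Ddx21*, a nucleolar RNA helicase, and *Ncl*, nucleolin, passed in no comparison, with differences between -0.20 and 0.14 in the 4 comparisons of 2 groups. A second, dimmer probe of *Ncl* fell by 0.31 with time in silenced cells (adjusted p = 0.0327 over 12332 probes).

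All 5 genes of the box C/D snoRNPs were measured, and silencing called none of them on either day. With time, 2 were lower in control cells and 3 in silenced cells.

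*Rrp9*, a protein of the U3 snoRNP that acts in the first cuts of the precursor, showed the largest change with time in this group in control cells. It read 9.64, 9.26 and 9.31 in control and 9.45, 9.41 and 9.50 in silenced cells at 48 h. By 96 h the readings were 8.80, 8.68 and 8.79 in control and 8.76, 8.76 and 9.004 in silenced cells. Every 96 h array was below every 48 h array. *Rrp9* fell by 0.64 in control (SE 0.11, adjusted p = 0.000673) and by 0.61 in silenced cells (SE 0.11, adjusted p = 0.000997), and the silencing differences were 0.05 and 0.08.

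*Nop56*, a core protein of the particle, varied more between replicates, with a pooled SD of 0.22 against a median of 0.11 over the 33 genes. At 48 h it read 9.99, 10.39 and 10.38 in control and 10.61, 10.25 and 10.54 in silenced cells. At 96 h it read 9.89, 9.70 and 9.84 in control and 9.57, 9.83 and 10.17 in silenced cells. It fell by 0.45 in control (adjusted p = 0.0409) and by 0.61 in silenced cells (adjusted p = 0.0104). The call in control cells held only without control replicate 1 of 48 h and was lost without any 1 of the other 5 arrays (adjusted p up to 0.126). The gene also hosts snoRNAs in its introns, which this probe does not measure.

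*Fbl*, fibrillarin, the methyltransferase of the particle, read 11.34, 11.37 and 11.34 in control and 11.59, 11.57 and 11.60 in silenced cells at 48 h. The 96 h arrays gave 11.23, 11.26 and 11.10 in control and 11.16, 11.13 and 11.44 in silenced cells. The 48 h groups were well apart, with a silencing difference of 0.24 (SE 0.08) that did not pass (adjusted p = 0.0926). From 48 h to 96 h the difference was -0.15 in control cells (adjusted p = 0.212), and *Fbl* fell by 0.34 in silenced cells (adjusted p = 0.0125). That call was lost without silenced replicate 1 or 2 of 96 h (adjusted p up to 0.0612).

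*Nop58*, the partner of *Nop56*, read 9.72, 9.48 and 9.54 in control and 9.55, 9.28 and 9.81 in silenced cells at 48 h. Values at 96 h were 10.18, 9.86 and 9.73 in control and 9.54, 9.65 and 9.66 in silenced cells. It was among the few that leaned upwards with time in control cells, by 0.34 (adjusted p = 0.0742), and at 96 h the silencing difference was -0.30 (adjusted p = 0.153), and neither passed. *Nolc1*, a chaperone of these particles, had differences of 0.09 to 0.19 in the 4 comparisons and passed in none.

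Of the box H/ACA snoRNP genes, *Nhp2*, *Nop10* and *Gar1* were measured, 3 of the 4 core proteins. *Nop10* was the only 1 of the 33 genes that was called higher with time in control cells, a call that was lost with the mean over its 2 probes (0.13, adjusted p = 0.385).

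At 48 h, *Nop10* read 11.84, 12.07 and 12.06 in control and 12.41, 12.47 and 12.69 in silenced cells. By 96 h the readings were 12.34, 12.51 and 12.24 in control and 12.24, 12.18 and 11.93 in silenced cells. Control arrays thus rose between the days while silenced arrays went down, and the order of the groups was turned at 96 h. With silencing *Nop10* was 0.53 higher (1.44-fold, SE 0.11, adjusted p = 0.0231) at 48 h, and the difference at 96 h was -0.25 (adjusted p = 0.199). With time it rose by 0.38 in control cells (adjusted p = 0.0225) and fell by 0.40 in silenced cells (adjusted p = 0.0182), an interaction of -0.78 (adjusted p = 0.0260), the largest of the 33.

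The call of *Nop10* at 48 h held without silenced replicate 1 and was lost without any 1 of the other 5 arrays of that day, with differences from 0.45 to 0.59 and adjusted p-values up to 0.0652. Its interaction was lost without control replicate 1 or silenced replicate 3 of 48 h, or control replicate 1 or 2 or silenced replicate 2 of 96 h (adjusted p up to 0.0619), and with the mean over its probes (-0.55, adjusted p = 0.0516). Its rise in control cells was lost without control replicate 1 of 48 h or control replicate 2 of 96 h (adjusted p up to 0.0945). Its fall in silenced cells was lost without replicate 3 of 48 h or of 96 h (adjusted p up to 0.0766).

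*Nhp2* read 11.94, 11.94 and 11.97 in control and 12.24, 12.01 and 12.12 in silenced cells at 48 h. At 96 h it read 11.76, 11.69 and 11.52 in control and 11.76, 11.84 and 11.77 in silenced cells. All 96 h arrays were lower than all 48 h arrays. It fell by 0.29 in control (adjusted p = 0.0198) and by 0.33 in silenced cells (adjusted p = 0.0111), and the silencing differences were 0.17 and 0.13, with adjusted p-values of 0.252 and 0.385. The call in control cells was lost without replicate 3 of either day (adjusted p up to 0.0824). *Gar1* lay between -0.13 and -0.12 in all 4 comparisons and passed in none.

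Among the small subunit factors, 6 of 12 were measured. All 6 were below 0 with time in either treatment, with 4 called lower in control and 2 in silenced cells. Silencing called 1 of the 6, *Heatr1*.

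*Heatr1*, the mammalian counterpart of yeast Utp10 in the complex that first assembles on the precursor, read 11.51, 11.62 and 11.36 in control and 11.28, 11.30 and 11.11 in silenced cells at 48 h. The 96 h arrays gave 10.85, 10.80 and 10.92 in control and 11.20, 11.22 and 11.15 in silenced cells. Control arrays were the higher group at 48 h and the lower one at 96 h, with no overlap on either day. The silencing difference was -0.26 at 48 h (adjusted p = 0.132) and *Heatr1* was higher by 0.34 (1.26-fold, SE 0.08, adjusted p = 0.0405) at 96 h. The interaction was 0.60 (adjusted p = 0.0245). In control cells it fell by 0.64 with time (SE 0.09, adjusted p = 0.000154), while in silenced cells the difference was -0.04 (adjusted p = 0.776).

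The silencing call of *Heatr1* was lost without any 1 of the 6 arrays of 96 h, with differences from 0.31 to 0.37 and adjusted p-values from 0.0566 to 0.126. The interaction was lost without control replicate 1 or silenced replicate 3 of 48 h, or without replicate 1 or 2 of either treatment at 96 h (adjusted p up to 0.0598). The fall in control cells held without each of its 6 arrays (adjusted p up to 0.00120). A second kept probe of the gene read the same way, 0.47 higher with silencing at 96 h, -0.10 at 48 h and -0.49 with time in control cells.

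*Nob1*, the endonuclease that makes the end of the small subunit RNA, read 9.27, 9.51 and 9.54 in control and 9.58, 9.45 and 9.57 in silenced cells at 48 h. Values at 96 h were 9.14, 9.03 and 9.11 in control and 9.35, 9.38 and 9.32 in silenced cells. The 96 h groups did not overlap, but the difference of 0.26 did not pass (adjusted p = 0.0780). It fell by 0.34 with time in control cells (adjusted p = 0.00848), and the difference in silenced cells was -0.18 (adjusted p = 0.144).

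*Noc4l*, related to yeast Noc4, read 9.79, 9.79 and 9.96 in control and 9.77, 9.60 and 9.68 in silenced cells at 48 h. By 96 h the readings were 9.35, 9.39 and 9.58 in control and 9.44, 9.41 and 9.74 in silenced cells. With time it fell by 0.41 in control cells (adjusted p = 0.0102), against a difference of -0.15 in silenced cells (adjusted p = 0.303). *Nop14*, its partner in yeast, fell by 0.25 in control cells (adjusted p = 0.0230), a call lost without replicate 1 of 48 h or replicate 1 or 3 of 96 h (adjusted p up to 0.0872). *Imp3* and *Imp4*, proteins bound to the U3 snoRNP, fell in silenced cells by 0.34 and 0.28 (adjusted p = 0.0166 and 0.0389). *Imp3* lost its call without silenced replicate 2 of 96 h (adjusted p = 0.0659), and *Imp4* without any 1 of its 6 arrays (adjusted p up to 0.103).

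**Figure D2:**
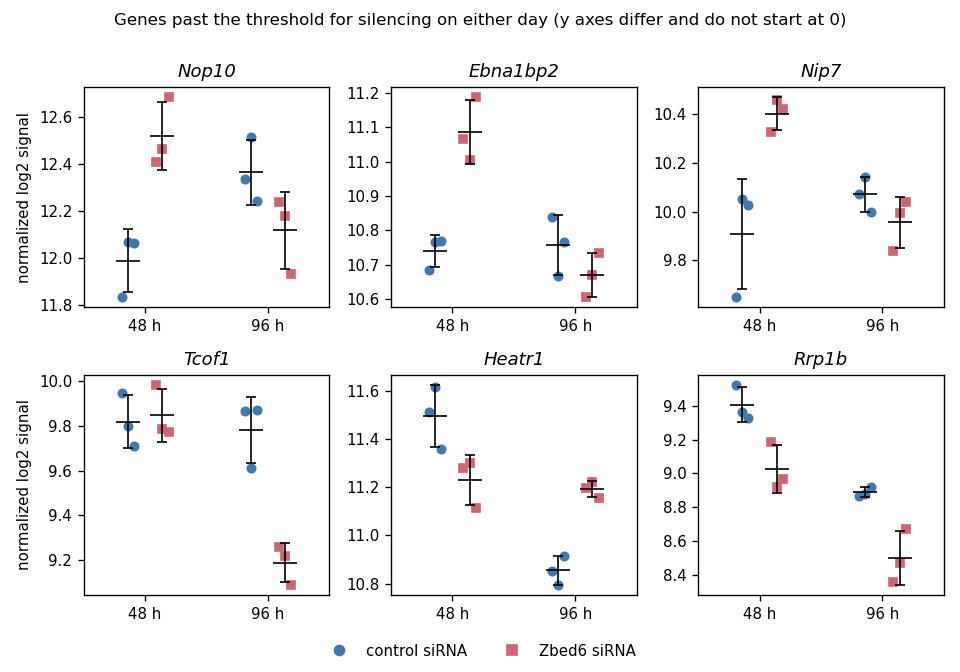
Normalized log2 signal of the 6 genes called for silencing on either day, 1 panel per gene with its own y axis that does not start at 0. Points are arrays, horizontal bars the mean and error bars the SD over 3 arrays, by day and treatment. *Nop10*, *Ebna1bp2* and *Nip7* are higher in silenced cells at 48 h, *Tcof1* drops to 9.09 to 9.26 in silenced cells at 96 h, *Heatr1* changes the order of its groups, and *Rrp1b* is lower in silenced cells on both days.

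The large subunit factors were the largest group. Of 13, 11 were measured, and with time 6 (54.5%) were lower in control and 7 (63.6%) in silenced cells. Silencing called 2 higher at 48 h and 1 lower at 96 h.

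*Ebna1bp2*, the counterpart of yeast Ebp2, read 10.69, 10.77 and 10.77 in control and 11.07, 11.01 and 11.19 in silenced cells at 48 h. At 96 h it read 10.84, 10.67 and 10.77 in control and 10.61, 10.67 and 10.74 in silenced cells. Only the silenced arrays at 48 h stood apart from the rest. The difference at 48 h was 0.35 (1.27-fold, SE 0.09, adjusted p = 0.0423) and that at 96 h was -0.09 (adjusted p = 0.558), with an interaction of -0.43 (adjusted p = 0.0494). In silenced cells the gene fell by 0.42 with time (adjusted p = 0.00201), and in control cells the difference was 0.02. The call at 48 h was lost without any 1 of its 6 arrays (adjusted p from 0.0747 to 0.115), and the interaction without any 1 of the 12 (adjusted p from 0.0566 to 0.112).

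The other 2 probes of *Ebna1bp2* followed it only in part. One gave -0.23 for silencing at 48 h and 0.45 in the interaction. Another went the way of the brightest for silencing, with 0.26 at 48 h, -0.064 at 96 h and -0.33 in the interaction, none of which passed. With time in silenced cells these probes gave 0.35 and 0.25, where the brightest probe gave -0.42. In control cells they gave -0.10 and 0.58, where the brightest gave 0.02. The probe that rose by 0.58 in control and 0.25 in silenced cells passed in both (adjusted p = 0.000393 and 0.0463 over 12332 probes). With the mean over the probes of *Ebna1bp2*, the difference at 48 h was 0.13 (adjusted p = 0.406). The gene's calls therefore rest on 1 of 3 probes.

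*Nip7*, which acts in maturation of the large subunit RNA, read 9.65, 10.05 and 10.03 in control and 10.33, 10.46 and 10.42 in silenced cells at 48 h. The 96 h arrays gave 10.07, 10.14 and 10.00 in control and 9.84, 10.00 and 10.04 in silenced cells. Control replicate 1 of 48 h was the lowest of the 12. With silencing the gene was 0.49 higher at 48 h (1.41-fold, SE 0.12, adjusted p = 0.0378), and the difference at 96 h was -0.11 (adjusted p = 0.452). The interaction was -0.61 (adjusted p = 0.0440) and with time it fell by 0.45 in silenced cells (adjusted p = 0.00784). Without control replicate 1 the difference at 48 h was 0.36 and did not pass. The call was lost without any 1 of the 6 arrays (adjusted p up to 0.113), and the interaction held only without control replicate 2 of 48 h (adjusted p up to 0.0987 without another array).

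*Rrp1b*, of the Rrp1 family of nucleolar proteins, read 9.52, 9.37 and 9.33 in control and 9.19, 8.92 and 8.97 in silenced cells at 48 h. Values at 96 h were 8.87, 8.88 and 8.92 in control and 8.36, 8.47 and 8.67 in silenced cells. Silenced arrays were below control arrays on both days, and 96 h arrays below 48 h arrays in both treatments. The silencing difference was -0.38 at 48 h (adjusted p = 0.0519), just over the threshold, and -0.39 at 96 h (1.31-fold lower, SE 0.10, adjusted p = 0.0492), just under it. With time it fell by 0.52 in control (adjusted p = 0.00195) and by 0.52 in silenced cells (adjusted p = 0.00185). The call at 96 h held only without silenced replicate 3 (adjusted p = 0.0353) and was lost without any 1 of the other 5 arrays, with adjusted p-values up to 0.143. Its other 2 probes gave -0.04 and 0.12 at 96 h.

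*Noc3l*, the counterpart of yeast Noc3, changed most with time in control cells. It read 7.86, 8.12 and 8.02 in control and 8.11, 8.26 and 8.05 in silenced cells at 48 h. By 96 h the readings were 7.25, 7.38 and 7.33 in control and 7.57, 7.62 and 7.49 in silenced cells. The days were wholly apart in both treatments. *Noc3l* fell by 0.68 in control (SE 0.09, adjusted p = 0.000128) and by 0.58 in silenced cells (SE 0.09, adjusted p = 0.000422). At 96 h the silenced arrays were all above the control arrays, by 0.24, which did not pass (adjusted p = 0.108).

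*Gnl3*, nucleostemin, a nucleolar GTPase of proliferating cells, read 12.58, 12.58 and 12.50 in control and 12.41, 12.52 and 12.53 in silenced cells at 48 h. At 96 h it read 12.25, 12.27 and 12.07 in control and 12.21, 12.28 and 12.23 in silenced cells. It fell by 0.36 in control (adjusted p = 0.00441) and by 0.24 in silenced cells (adjusted p = 0.0354). The call in silenced cells held only without replicate 1 of 48 h and was lost without any 1 of the other 5 arrays (adjusted p up to 0.0986). A second, dimmer probe differed more, by -1.16 in control and -1.45 in silenced cells.

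Of the other large subunit factors, *Nop2*, an RNA methyltransferase, and *Wdr74* were lower with time in both treatments, by 0.30 and 0.30 in control and by 0.41 and 0.43 in silenced cells. In control cells *Nop2* lost its call without replicate 2 or 3 of either day (adjusted p up to 0.0983). *Wdr74* lost it without replicate 2 or 3 of 48 h or replicate 1 or 3 of 96 h (adjusted p up to 0.135), and its control arrays of the 2 days overlapped. *Bop1*, a part of the complex with *Pes1* and *Wdr12*, fell by 0.44 with time in control cells (adjusted p = 0.00476), and the difference in silenced cells was 0.02 (adjusted p = 0.896). Its silencing difference at 48 h was -0.32 (adjusted p = 0.0595). *Pes1*, *Gnl2* and *Npm1*, nucleophosmin, passed in no comparison. At 96 h *Npm1* was at 13.26, 13.24 and 13.15 in control and 12.90, 13.01 and 13.05 in silenced cells, a difference of -0.23 that did not pass (adjusted p = 0.119).

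**Figure D3:**
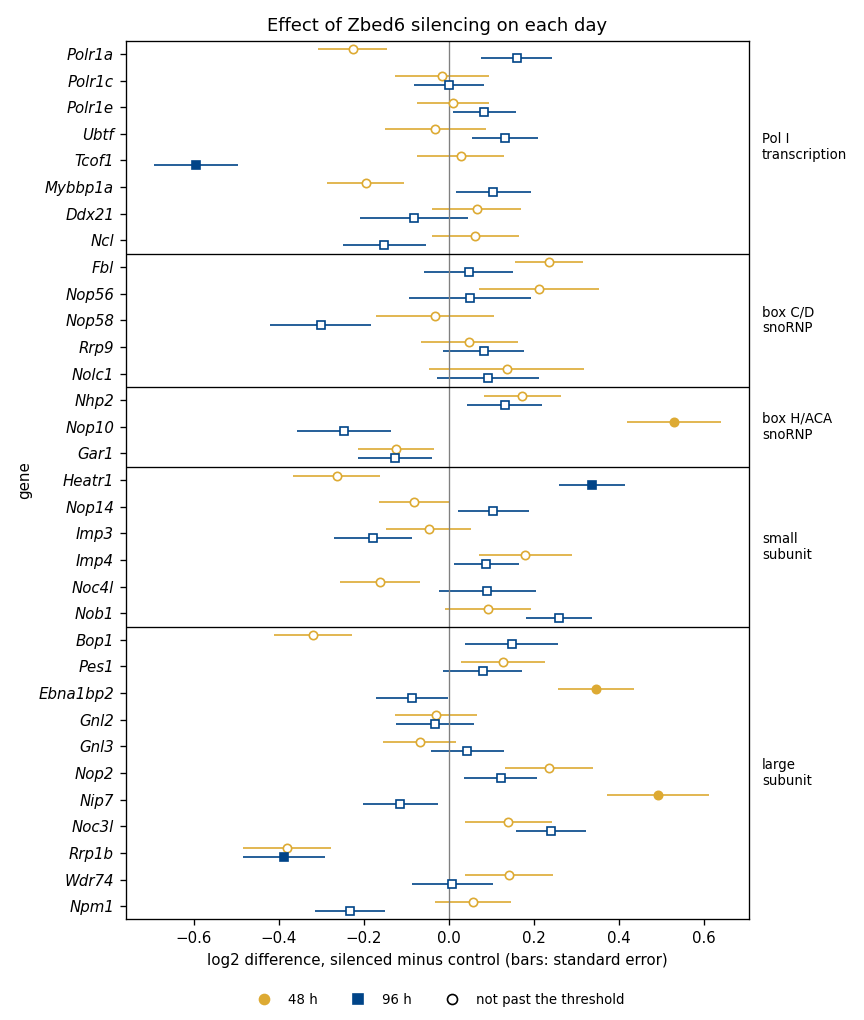
Silencing difference (silenced minus control, log2) of the 33 genes at 48 h (circles) and 96 h (squares), with standard errors, in groups by role. Filled symbols passed the threshold, which are *Nop10*, *Ebna1bp2* and *Nip7* at 48 h and *Tcof1*, *Heatr1* and *Rrp1b* at 96 h, and 30 of 33 symbols are open on either day.

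Across the roles, 23 of the 33 genes were called lower with time in at least 1 treatment, where 20.9% of all genes were. Of these, 9 were called in both (*Polr1e*, *Nop56*, *Rrp9*, *Nhp2*, *Gnl3*, *Nop2*, *Noc3l*, *Rrp1b* and *Wdr74*), 7 in control cells alone (*Polr1a*, *Mybbp1a*, *Heatr1*, *Nop14*, *Noc4l*, *Nob1* and *Bop1*) and 7 in silenced cells alone (*Tcof1*, *Fbl*, *Nop10*, *Imp3*, *Imp4*, *Ebna1bp2* and *Nip7*). Over all genes, 6.63% were called lower in both. The 9 are 56.2% of the 16 members lower in control cells and 56.2% of the 16 lower in silenced cells. Over all genes the shared ones are 43.6% of those lower in control and 53.7% of those lower in silenced cells. A call in 1 treatment alone is not a difference between treatments. That difference was tested as the interaction, and of these 14 genes it passed for *Heatr1*, *Tcof1*, *Nop10*, *Ebna1bp2* and *Nip7*. The 2 comparisons use different arrays but 1 estimate of the spread. The difference was below 0 for 24 genes in control and 27 in silenced cells, where 47.9% and 46.8% of all genes were below 0. The 6 control arrays did not overlap between days for 16 genes that were lower and 3 that were higher, and the 6 silenced arrays for 19 and 0. Over all genes, no overlap was found in 22.4% lower and 25.8% higher in control, and in 19.4% lower and 22.8% higher in silenced cells.

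The calls with time held more often without 1 array than those of silencing. Silencing was fitted on 6 arrays, time and the interaction on 12, so calls of silencing and of time are not compared at equal power. In control cells, 11 of 17 held without each of the 6 arrays, and in silenced cells 10 of 16. None of the 3 calls at 48 h, the 3 at 96 h and the 5 of the interaction did. Of the 33 genes, 3 changed by over 1.5-fold with time in each treatment, 1 with silencing at 96 h and 0 at 48 h. The share of all genes past that fold is not given. *Polr1c*, *Ubtf*, *Ddx21*, *Ncl*, *Nop58*, *Nolc1*, *Gar1*, *Pes1*, *Gnl2* and *Npm1* passed in none of the 5 comparisons.

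**Figure D4:**
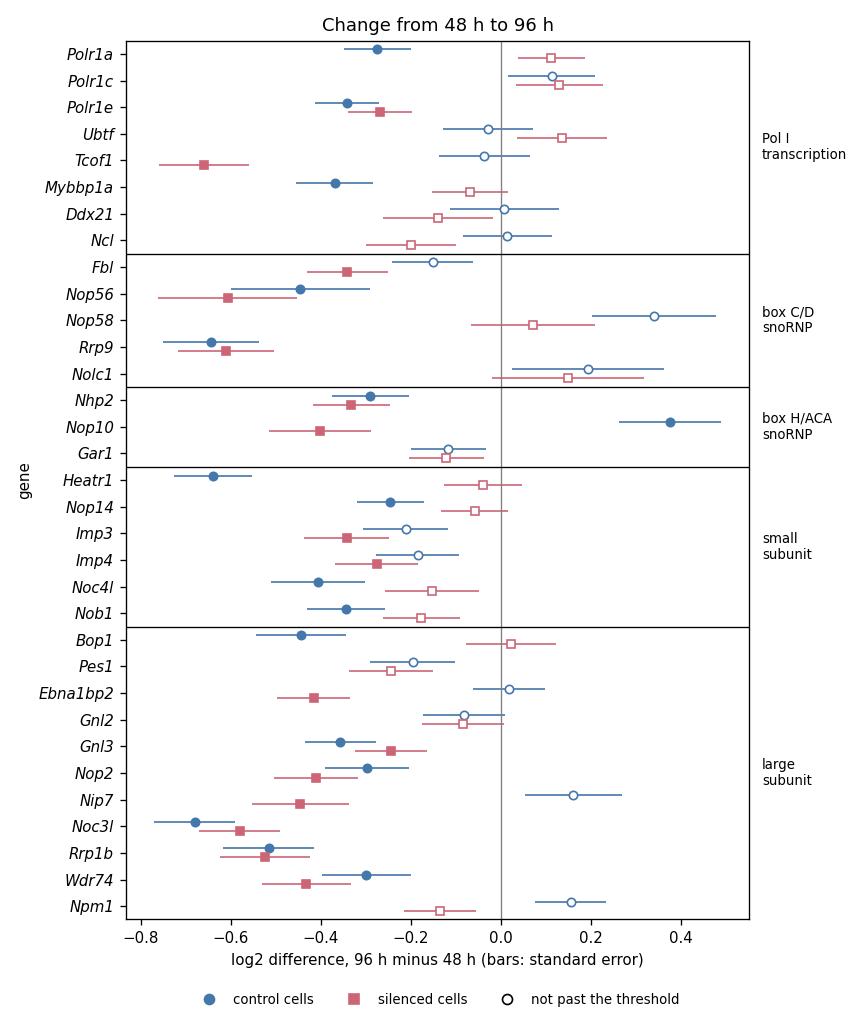
Difference from 48 h to 96 h (log2, 96 h minus 48 h) of the 33 genes in control (circles) and silenced cells (squares), with standard errors, in groups by role. Filled symbols passed the threshold. Of the 33 genes, 24 lie below 0 in control and 27 in silenced cells, and *Nop10* is the 1 gene with a filled symbol above 0.

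More than 1 kept probe was available for 13 of the 33 genes, and the brightest stood for each. Most further probes leaned the same way with time, but not all. For *Nop10* the second probe gave -0.12 with time in control cells, where the brightest gave 0.38, and -0.45 in silenced cells, where the brightest gave -0.40. For silencing at 48 h it gave 0.38. *Mybbp1a* had probes at -0.37, -0.65 and -0.88 with time in control cells, and at -0.07, 0.06 and -0.76 in silenced cells. The interaction of its second probe was 0.71 (adjusted p = 0.0327 over 12332 probes, of which 1.54% were called higher). The dimmest probe of *Nop2* was 0.43 higher with silencing at 96 h (adjusted p = 0.0323 over probes, of which 2.77% were called higher), where the brightest gave 0.12.

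**Figure D5:**
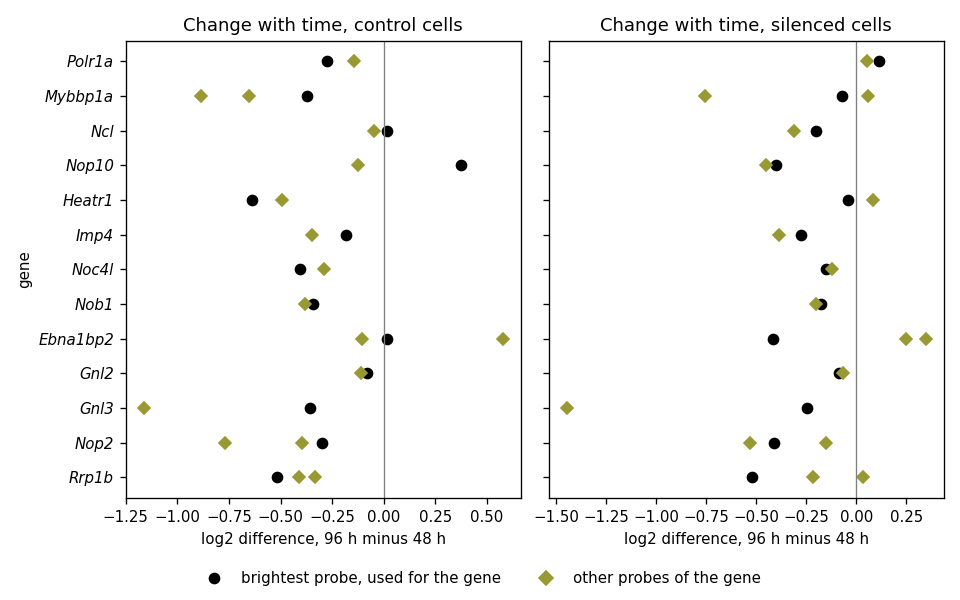
Difference from 48 h to 96 h (log2) of every kept probe of the 13 genes with more than 1, in control cells (left) and silenced cells (right). Circles are the brightest probe, used for the gene, and diamonds the others. The probes of *Ebna1bp2* lie on both sides of 0 in silenced cells (-0.42, 0.25 and 0.35), as do those of *Nop10* in control cells (0.38 and -0.12).

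A further 108 genes of ribosome biogenesis that are not among the 44 were looked at in 5 lists: other RNA polymerase I machinery, other snoRNP factors, other small subunit factors, other large subunit factors and the nuclear exosome. Of these, 81 were measured. With time, 20 (24.7%) were lower and 5 higher in control cells, where 15.2% of all genes were lower and 17.7% higher. In silenced cells 20 were lower and 0 higher, where 12.4% of all genes were lower and 15.6% higher. The medians were -0.13 and -0.18. Against 10.2% and 6.83% of all genes called for silencing on the 2 days, silencing called 2 higher and 1 lower at 48 h, and 1 higher and 0 lower at 96 h. *Lsg1*, a GTPase of the late large subunit, fell by 0.62 in control and by 0.28 in silenced cells (adjusted p = 7.2e-05 and 0.0146). *Mak16* fell by 0.47 and 0.86 (adjusted p = 0.00247 and 2.75e-05), and *Krr1*, a small subunit factor, by 0.65 and 0.77 (adjusted p = 0.00455 and 0.00180). *Cd3eap*, a subunit of RNA polymerase I, fell by 0.35 and 0.71 (adjusted p = 0.00560 and 3.7e-05). *Utp6* went the other way in control cells, by 0.36 (adjusted p = 0.00209), and *Pwp2*, of the small subunit, was higher by 0.64 with silencing at 96 h (adjusted p = 0.00857).

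Genes of growth and of muscle also differed between these groups. *Myc*, the transcription factor that drives many ribosome biogenesis genes, fell by 1.09 with time in control cells (adjusted p = 0.000925), and the difference in silenced cells was -0.50 (adjusted p = 0.0618). *Mxd4*, a MAX partner that opposes MYC, was lower with silencing by 0.94 at 48 h (adjusted p = 0.00795) and by 0.57 at 96 h (adjusted p = 0.0321). Of 13 proliferation genes measured, *Birc5*, *Cdk1*, *Ccna2* and *Rrm2* were called higher with time in control cells (0.71, 0.52, 0.59 and 0.32) and none in silenced cells. Of the 13, 11 were above 0 in each treatment, with medians of 0.28 in control and 0.20 in silenced cells. The median over all genes was 0.02 in both. None of the 13 passed in the interaction. Of 14 genes of muscle differentiation, 4 were higher and 2 lower with time in control cells, and 4 and 3 in silenced cells. Silencing called 3 of the 14 higher at 48 h and 4 higher at 96 h. Over all genes, 17.7% were called higher and 15.2% lower with time in control cells, and 15.6% and 12.4% in silenced cells. For silencing, 4.63% of all genes were called higher at 48 h and 3.44% at 96 h. The part of the growth and muscle genes in the results for the ribosome biogenesis genes was not tested.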

How the data were processed

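Each of the 12 RNA samples was read on 1 Illumina MouseRef-8 v2 BeadChip array. The authors deposited the raw bead intensity of each probe, neither background subtracted nor normalized, and beside it, per the file headers, a detection p-value that moves in steps of 1/798. A second table that the authors deposited holds values on a log2-like scale, made with the lumi bundle in FlexArray, whose exact transformation and centring are not stated in the sources used here. Their column medians lay between 7.845 and 7.851, and with the mean of each probe removed, each column correlated with its own array at 0.777 to 0.848 and with any other array at 0.642 or less. They served only as an alternative. Groups and replicate numbers came from the labels.

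Raw intensity was background corrected by normexp from the detection p-values with an offset of 16, quantile normalized and log2 transformed (neqc, limma 3.58.1, R 4.3.3). Quantile normalization sets all arrays to 1 distribution, so a shift shared by most genes would not be seen. Of 25697 probes, 23978 had 1 gene symbol in the platform annotation and 1719 had none. The 13095 probes detected at p under 0.05 on at least 3 arrays were kept, and the brightest named probe stood for each of 8858 genes. The symbols of all 33 measured genes matched a RefSeq gene table by gene ID.

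The moderated test of limma was applied to silencing on the 6 arrays of 1 day, since the study's methods contrast treatments within a time point. For the change with time and the interaction, 4 group means were fitted together to the 12 arrays. Values per array were given for genes called for silencing or in the interaction, for the 2 of each role group with the smallest p on each day, and for the 6 with the smallest p with time in control cells. Values of *Npm1*, and probes and genes named beyond this rule, were chosen after they were seen, as was the search for GCTCG. The genes, the role groups and the further lists were chosen with earlier results of these data known, so no test over a list was made. Alternatives were the authors' values, median scaling, raw signal without background correction, an offset of 50, no or a stricter filter, the mean over probes, other arrays in the fit, the replicate number as a block, and each array left out.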

Additional observations from a re-analysis of the deposited data

Results flagged for a closer look

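The silencing effect differed between 48 h and 96 h for 5 of the 33 genes, by limma's test of the interaction with Benjamini-Hochberg adjustment over 8858 genes. *Nop10* had an effect that was lower by 0.78 at 96 h than at 48 h (-0.78, adjusted p = 0.0260), and *Nip7* (-0.61, adjusted p = 0.0440) and *Ebna1bp2* (-0.43, adjusted p = 0.0494) differed the same way. *Tcof1* differed by -0.62 (adjusted p = 0.0336) without a difference at 48 h that passed. *Heatr1* was the 1 gene that differed upwards (0.60, adjusted p = 0.0245). For *Ebna1bp2* the mean over its probes gave an interaction of -0.10 (adjusted p = 0.642), and for *Nop10* -0.55 (adjusted p = 0.0516).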

How the results depend on the processing

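At 48 h, 3 genes were called for silencing, all higher, against 7 with the authors' values (4 higher, 3 lower), 6 with no background correction (4 and 2), 1 with median scaling (1 and 0) and 5 (3 and 2) each with an offset of 50, with detection on all 12 arrays and with all 12 arrays in the fit. Leaving out 1 array gave 0 to 2, and the median then ranged from 0.027 to 0.059. At 96 h, 3 were called, against 1 with the replicate block, and leaving out 1 array gave 0 to 2, with medians from -0.0013 (without control replicate 3) to 0.072. Median scaling gave medians of 0.10 on both days. With time in control cells, 17 were called, against 7 with median scaling, and the median of -0.21 became -0.16 with the authors' values, -0.15 with median scaling and -0.28 to -0.17 without 1 array (lowest without replicate 1 of 48 h), with 13 to 17 calls. In silenced cells, the median of -0.24 became -0.16 with the authors' values, -0.17 with median scaling and -0.18 with no filter on dim probes, and leaving out 1 array gave 11 to 15 calls and medians from -0.28 to -0.22. For the interaction, 5 were called, against 1 with median scaling, 3 with the mean over probes and 0 to 3 without 1 array (0 without silenced replicate 3 of 48 h, or control replicate 1 or silenced replicate 2 of 96 h), and its median ranged from -0.079 to 0.015. Over all genes at 48 h, 907 were called, against 1055 with the authors' values, 1470 with no background correction and 468 with median scaling. With time in control cells 2913 of all genes were called, against 2547 with median scaling. In the interaction these counts were 398 and 123. Counts over all genes for the other settings and without 1 array are not given. Why these settings move the counts was not tested.

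Of all genes called at 96 h for silencing, 50.4% were higher, and 63% with median scaling. With time these shares were 53.8% and 68.6% in control and 55.8% and 70.3% in silenced cells. *Ebna1bp2* with time in silenced cells changed sign with the mean over probes (0.061, against -0.42), and *Nop10* lost its calls with time in control cells (0.13, adjusted p = 0.385) and in the interaction (adjusted p = 0.0516). The replicate numbers did not pair the samples (deviations of same-numbered arrays correlated at -0.22 to 0.17). With the replicate block, 3 genes were called at 48 h (2 higher, 1 lower), 17 and 14 with time and 4 in the interaction, *Ebna1bp2* (adjusted p = 0.0631 at 48 h, 0.0733 in the interaction), *Heatr1* (0.0967), *Rrp1b* (0.0774), and with time in silenced cells *Imp4* (0.0553) and *Gnl3* (0.0508), lost their calls. Median scaling also ended the calls of *Ebna1bp2* (adjusted p = 0.0680) and *Nip7* (0.0544) at 48 h, of *Rrp1b* at 96 h (0.0744), and of *Tcof1*, *Heatr1*, *Ebna1bp2* and *Nip7* in the interaction (0.0549 to 0.122). Of the values of named genes under an alternative, 737 kept their direction and their side of the threshold, 151 kept their direction but did not pass, 6 passed and 1 changed sign. Of the calls with time, 6 of 17 in control (*Mybbp1a*, *Rrp9*, *Heatr1*, *Bop1*, *Noc3l* and *Rrp1b*) and 7 of 16 in silenced cells held under every alternative, and none for silencing or the interaction did. Array signal over background limits the 4 genes whose probe was never detected.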

Other observations

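Of 20 genes that host small nucleolar RNAs in their introns, 7 were measured, *Nop56* and *Ncl* among them. *Tpt1*, which encodes a translationally controlled protein, was 0.54 higher with silencing at 48 h (adjusted p = 0.0452) and rose with time by 1.09 in control (adjusted p = 4.92e-05) and by 0.43 in silenced cells (adjusted p = 0.0218). *Eif4a1* and *Eif4a2*, which encode forms of the translation initiation helicase, went opposite ways with time in control cells, by -0.31 and 0.38 (adjusted p = 0.00540 and 0.00622).

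Of 8 measured genes of the MYC network, 1 was called higher and 2 lower with time in control cells, and 3 higher and 0 lower in silenced cells. Over all genes, the shares were 17.7% higher and 15.2% lower in control cells, and 15.6% and 12.4% in silenced cells. *Mxi1*, a MAX partner that opposes MYC, was higher at 96 h by 0.45 in control and by 0.38 in silenced cells (adjusted p = 0.00586 and 0.0167). *Mxd4*, another such partner, went the other way with time in control cells and fell by 0.53 (adjusted p = 0.0095). The interaction of *Myc* was 0.58 and did not pass (adjusted p = 0.209).

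Across the 33 genes, which share the same arrays, the silencing difference at 48 h and the length of the gene in the RefSeq annotation had a Spearman correlation of -0.46, against -0.03 over 8853 genes. At 96 h it was 0.21, against 0.04. Genes are not independent replicates, and this is given as a description.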
